A study of Mus musculus with 3 samples.

Results

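Lyz1, Ang4, Mmp7 and Mptx2 are 4 genes for antimicrobial proteins that mouse Paneth cells secrete beside the alpha-defensins. They were taken by name from the 13891 genes measured in 12653 small intestinal cells, and all 4 had a row. They were followed in Paneth cells and, for comparison, in goblet, crypt and villus cells, and in each of 3 libraries. Paneth cells were the 489 cells in which at least 1500 of every 10000 unique molecular identifiers (UMIs, the tags that count captured RNA molecules) came from the 20 genes whose symbol begins with Defa. The members themselves played no part in that choice, but they share their cells with the Defa genes that made it.

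Paneth cells sit at the base of the crypts of the small intestine, store antimicrobial proteins in large granules and release them into the crypt lumen beside the stem cells. Lyz1 encodes the lysozyme of these granules, an enzyme that cuts the peptidoglycan of bacterial walls. Ang4 encodes angiogenin 4, a secreted protein of the ribonuclease family with activity against microbes. Mmp7 encodes matrilysin, the metalloproteinase that cuts the precursors of alpha-defensins into their active form in mice. Mptx2 encodes a mucosal pentraxin, a secreted protein of the pentraxin family.

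The libraries came from male ICR mice, an outbred strain, that were 3 weeks old at the start. AOS 0 mice were given vehicle. B + A 0 mice had 1 injection of busulfan at 40 mg/kg and then vehicle, and B + A 10 mice had the same busulfan and AOS at 10 mg/kg, by gavage for 2 weeks in each group. Busulfan, used against cancers, alkylates DNA, and AOS stands for alginate oligosaccharides, short sugar chains from brown algae. Values for the 3 libraries are always given with AOS 0 first and B + A 10 last. Cells of 6 mice were pooled for each group and made into 1 library with 10x Genomics 3′ chemistry, so differences between groups had no replicate check and no test could be made. Every interval in parentheses is a 95% interval that covers counting error only. GEO's source labels of the libraries given here as B + A 0 and B + A 10 name other groups (AOS10 and B+A0), while their titles, descriptions and treatment fields name the groups used here. The libraries held 4106, 3195 and 5352 cells, with medians of 7371, 6407 and 3505 UMIs. Paneth cells numbered 109, 189 and 191, with medians of 20042, 21667 and 8595 UMIs. The B + A 10 Paneth cells were thus the shallowest, and what this does to the comparison of libraries is given with it. Between 48 and 65 cell barcodes of a library also occurred in another one, and no barcode was a Paneth cell in more than 1 library.

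All 4 members lie on different chromosomes in the mouse build GRCm38. Lyz1 spans chr10:117287797-117292868 on the minus strand in 4 exons, and its close copy Lyz2, the lysozyme of macrophages, lies 5.47 kb from it on the same strand. Mptx2 spans chr1:173274382-173277777 on the minus strand in 2 exons, with its copy Mptx1 on the other strand 1053 kb away. Ang4 spans chr14:51763878-51773590 on the minus strand in 2 exons and shares chromosome 14 with Ang, Ang2, Ang5 and Ang6. Mmp7 spans chr9:7692090-7699585 on the plus strand in 6 exons. Over the last 300 bases of the transcript, the part a 3′ library reads, Lyz1 and Lyz2 were identical at 96.9% of aligned bases, Mptx2 and Mptx1 at 89.5%, and Ang4 and Ang5 at 93.1%. Counts of these pairs are therefore uncertain where a read fits both copies.

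The members and their copies are shown by the bases before their start, because the copies share most of this sequence while their levels in the cells differ. All 4 members and 9 of the 10 genes looked up had a RefSeq promoter sequence of GRCm38.p6. The sequences are written 5′ to 3′ on the strand of the gene and ending just before the transcript. Up to 250 bases are shown, and bases inside an annotated exon were left out. In each pair the capitals mark bases that differ from the other copy or have no partner in it. Lyz1 lies at chr10:117292869-117293118 and Lyz2 at chr10:117282322-117282522, both on the minus strand.
Lyz1: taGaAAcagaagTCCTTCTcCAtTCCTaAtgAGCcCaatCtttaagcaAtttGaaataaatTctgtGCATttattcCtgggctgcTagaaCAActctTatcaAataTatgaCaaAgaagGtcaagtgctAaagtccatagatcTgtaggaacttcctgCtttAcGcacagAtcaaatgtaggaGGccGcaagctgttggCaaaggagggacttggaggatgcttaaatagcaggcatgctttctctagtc
Lyz2: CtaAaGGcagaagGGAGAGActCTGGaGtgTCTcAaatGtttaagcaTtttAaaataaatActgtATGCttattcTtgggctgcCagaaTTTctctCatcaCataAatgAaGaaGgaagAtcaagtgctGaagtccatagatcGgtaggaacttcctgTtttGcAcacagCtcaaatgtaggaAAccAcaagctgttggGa
Over the whole 250 bases 80.6% of aligned bases were the same, and over the 100 bases nearest the start 92%. Mptx2 lies at chr1:173277778-173278006 on the minus strand and Mptx1 at chr1:174330268-174330517 on the plus strand.
Mptx2: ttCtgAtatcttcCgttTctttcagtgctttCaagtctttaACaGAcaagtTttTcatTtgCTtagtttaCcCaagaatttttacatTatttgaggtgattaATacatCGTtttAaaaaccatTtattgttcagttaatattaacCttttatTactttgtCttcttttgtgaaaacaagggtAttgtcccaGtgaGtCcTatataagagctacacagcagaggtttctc
Mptx1: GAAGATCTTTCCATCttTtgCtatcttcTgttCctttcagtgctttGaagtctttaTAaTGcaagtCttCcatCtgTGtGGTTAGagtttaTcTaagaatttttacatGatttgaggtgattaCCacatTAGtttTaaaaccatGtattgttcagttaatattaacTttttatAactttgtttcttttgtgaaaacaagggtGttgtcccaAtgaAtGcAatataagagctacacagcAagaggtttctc
This pair was identical at 86.4% of aligned bases. Ang4 lies at chr14:51773591-51773840 on the minus strand and Ang5 at chr14:43956819-43957068 on the plus strand, with 89.3% of aligned bases the same.
Ang4: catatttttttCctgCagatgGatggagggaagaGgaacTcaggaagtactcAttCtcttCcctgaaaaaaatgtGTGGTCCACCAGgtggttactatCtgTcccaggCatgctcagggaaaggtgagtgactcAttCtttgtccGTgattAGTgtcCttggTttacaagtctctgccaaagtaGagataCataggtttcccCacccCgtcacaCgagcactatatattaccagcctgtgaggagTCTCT
Ang5: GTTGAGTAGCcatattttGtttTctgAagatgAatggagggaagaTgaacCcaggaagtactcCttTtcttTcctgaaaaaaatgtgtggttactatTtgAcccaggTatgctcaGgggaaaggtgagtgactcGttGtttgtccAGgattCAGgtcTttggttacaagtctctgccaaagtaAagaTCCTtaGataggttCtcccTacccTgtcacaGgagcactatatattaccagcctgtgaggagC
Mmp7 has no copy among the genes looked up here and lies at chr9:7691840-7692089. Its capitals mark the TATA motif searched for.
Mmp7: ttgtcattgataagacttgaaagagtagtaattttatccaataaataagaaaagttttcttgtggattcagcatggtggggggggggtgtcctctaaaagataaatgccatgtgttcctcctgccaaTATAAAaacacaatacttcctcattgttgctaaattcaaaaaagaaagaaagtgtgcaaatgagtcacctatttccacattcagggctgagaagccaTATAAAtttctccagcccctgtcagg

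The motifs were searched on both strands of the 250 bases: CTTTGAT, a site of the TCF and LEF factors of the Wnt pathway, the E-boxes CAGCTG and CAGATG, and TATAAA. They do not overlap each other. Within these bases CTTTGAT stood in 3.21% of all 32851 promoters, an E-box in 25.5% and TATAAA in 12.4%. Matches after the start, in the further bases of the same sequences, are named as such, and no share of all promoters was counted for them. Mmp7 held TATAAA at 26 and 123 bases before its start, and the complement ATCAAAG of the TCF and LEF site at base 5 of its transcript. Ang4 held 1 E-box at 235 bases before its start. Lyz1 and Mptx2 held none of the motifs before the start, and Lyz1 and Lyz2 both held the E-box CAGCTG at base 7 of the transcript. Mptx1 held an E-box at 180 bases before its start and TATAAA, on the other strand, at 198 and 82. These matches describe the letters of the windows only.

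In Paneth cells, which were named by their Defa level alone, 7 marker genes fixed for the check (the 4 members, Itln1, Pnliprp2 and Habp2) were 9.8 to 239 times as high as in the goblet, crypt and villus cells of the same library together. The members are the subject here, so only Itln1, Pnliprp2 and Habp2 serve as a check apart from them. These ran from 9.8-fold (Habp2, B + A 10) to 30.7-fold (Pnliprp2, B + A 0). Defa genes made up 56.2%, 55.7% and 57.3% of the UMIs of Paneth cells. The 4 members together made up 7.4%, 5.46% and 3.4%. A large share of the Paneth cells also held goblet markers: 228 of the 489 passed the minimum for goblet cells (300 UMIs per 10000 over Muc2, Fcgbp, Clca1, Zg16, Tff3 and Spink4). These were 45%, 41.3% and 52.9% of the Paneth cells of the libraries. No doublet caller was run, the part of these cells in the results was not tested, and values without them are given below.

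Lyz1 stood at 332 (329 to 334), 254 (253 to 256) and 173 (171 to 174) UMIs per 10000 in Paneth cells. Goblet cells held 6.45, 9.37 and 6.07, crypt cells 2.45, 5.34 and 2.72, and villus cells 1.71, 5.15 and 2.32. Paneth cells were thus above every other class in each library, by 27.1-fold (26.3 to 28) at the least, over the goblet cells of B + A 0. Ang4 stood at 175 (174 to 177), 147 (146 to 148) and 94 (92.8 to 95.3) in Paneth cells. In the goblet, crypt and villus cells it lay between 0.901 (AOS 0 villus cells) and 2.82 (B + A 0 goblet cells). The smallest Paneth excess of Ang4 was 52.1-fold (49.3 to 55), again over goblet cells of B + A 0.

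Mptx2 stood at 216 (214 to 218), 129.6 (129 to 131) and 64 (63 to 65.1) UMIs per 10000 in Paneth cells. Its levels elsewhere ran from 0.4 in villus cells of B + A 10 to 1.36 in goblet cells of B + A 0, and the smallest Paneth excess was 95.6-fold (88.3 to 104). Mmp7 had the narrowest excess of the members over goblet cells. It stood at 16.7 (16.2 to 17.2), 14.9 (14.6 to 15.3) and 9.72 (9.32 to 10.1) in Paneth cells, and at 4.79, 4.1 and 2.59 in goblet cells. In crypt cells it was at 0.267, 0.397 and 0.169, and in villus cells at 0.0819, 0.257 and 0.116. Paneth cells exceeded goblet cells by 3.49-fold (3.32 to 3.66), 3.65-fold (3.47 to 3.84) and 3.75-fold (3.48 to 4.05), and crypt cells by 37.6-fold or more.

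**Figure D1:**
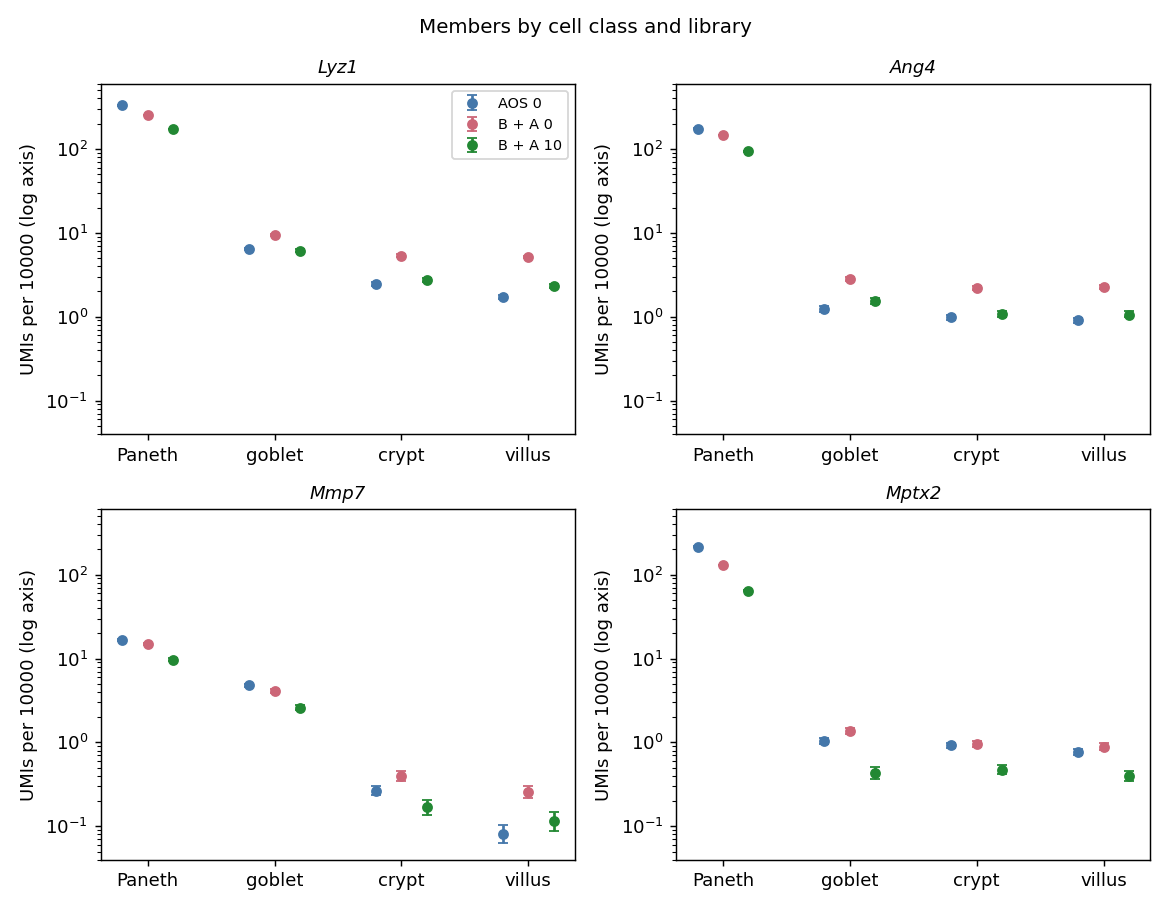
Level of each member (UMIs per 10000 on a log axis, UMIs pooled over cells) in Paneth, goblet, crypt and villus cells of the 3 libraries, with bars for the exact Poisson 95% interval. Paneth cells are highest throughout, and Mmp7 alone has goblet cells (2.59 to 4.79) far above crypt and villus cells (0.0819 to 0.397).

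By a rule of 10-fold or more over each of the other 3 classes, 9 of the 12 pairs of a member and a library passed, and the 3 that did not were Mmp7 over goblet cells. Against the other classes as 1 pool all 12 passed, with the smallest value at 10.4-fold (9.94 to 10.9) for Mmp7 in B + A 0. Of all genes with enough UMIs, 0.322% were 10-fold or more higher in Paneth cells of AOS 0, beside 0.438% for B + A 0 and 0.513% for B + A 10. The Paneth cells, 2.65%, 5.92% and 3.57% of the cells of the libraries, held 89.3%, 89.7% and 85.4% of all Lyz1 UMIs. They held 90.2% to 93.1% of the Ang4 UMIs and 94.5% to 96.4% of the Mptx2 UMIs. Of the Mmp7 UMIs they held 52.4%, 70.2% and 61.8%, and goblet cells a further 33.7%, 19.4% and 27.2%.

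Outside Paneth cells the signal of Lyz1, Ang4 and Mptx2 was low. Lyz1 was uneven among the other classes, at 3.78-fold (3.55 to 4.03), 1.82-fold (1.73 to 1.91) and 2.62-fold (2.44 to 2.81) more in goblet than in villus cells. After each cell was thinned to 1000 UMIs, Ang4 was found in 9.36% (7.75 to 11.2), 17.7% (15.2 to 20.5) and 9.06% (7.71 to 10.6) of the villus cells, which are not known to make it, with median depths of 5840, 5276 and 2807 UMIs. In crypt cells the shares were 11.3%, 19.2% and 10.5%, and in goblet cells 11.8%, 22.9% and 12.3%. The Ang4 levels of crypt and villus cells differed by less than their intervals in each library (1.09-fold, 0.99 to 1.21; 0.961-fold, 0.887 to 1.04; and 1.01-fold, 0.899 to 1.14). No expression is read from these shares of crypt cells, which stood near those of villus cells. Mptx2 was found in 7.99%, 8.4% and 3.82% of villus cells and in 10%, 7.44% and 4.86% of crypt cells. Its level in crypt cells was 1.21-fold (1.09 to 1.35), 1.08-fold (0.956 to 1.23) and 1.18-fold (0.983 to 1.43) that of villus cells. Free RNA in the droplets was not measured, and its part in these values was not tested.

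The ratio of Mptx2 to Ang4 was highest in AOS 0 inside and outside Paneth cells. For every Ang4 UMI the villus cells held 0.849 (0.759 to 0.95), 0.393 (0.352 to 0.439) and 0.376 (0.319 to 0.442) Mptx2 UMIs. Crypt cells held 0.94 (0.856 to 1.03), 0.443 (0.401 to 0.489) and 0.441 (0.38 to 0.51), and goblet cells 0.844, 0.48 and 0.284. The intervals of B + A 0 and B + A 10 overlapped in villus and crypt cells, but not in goblet or Paneth cells. In Paneth cells the ratio was 1.23 (1.22 to 1.25), 0.882 (0.872 to 0.891) and 0.681 (0.667 to 0.696). Mptx2 was thus lower against Ang4 in both busulfan libraries than in AOS 0, in Paneth cells and in cells of other classes alike, although the ratios of the classes were not the same.

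Mmp7 was higher in goblet than in crypt cells also where the Defa sum was low. Goblet cells with a Defa sum below 50 held 2.89, 2.16 and 0.963 Mmp7 UMIs per 10000, while crypt cells under the same limit held 0.185, 0.289 and 0.104. The limit kept unlike shares of the libraries, with 435, 158 and 463 of the 711, 682 and 953 goblet cells. The part of free RNA in these values was not tested. The ratios were 15.6 (13.2 to 18.6), 7.47 (5.99 to 9.37) and 9.24 (6.72 to 12.9). For the other members the same ratio lay between 1.03 (Mptx2, B + A 10) and 1.78 (Lyz1, AOS 0). After thinning, Mmp7 was found in 26.2% (23 to 29.6), 23.3% (20.2 to 26.7) and 16.6% (14.3 to 19.1) of all goblet cells, against 1.03%, 1.75% and 1.11% of villus cells. Mmp7 was also uneven among goblet cells, with a median of 1.63 per 10000 and a highest value of 76.6 in AOS 0.

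Along the Defa sum of a cell the 4 members came up in different places. Mmp7 was already at 35.3%, 35.4% and 45.2% of its highest level in cells with a Defa sum of 200 to 800. In the same cells Lyz1 was at 4.35%, 5.84% and 4.98% of its highest level, Ang4 at 1.92%, 2.91% and 2.51%, and Mptx2 at 1.29%, 1.82% and 1.59%. These were mainly cells with goblet markers, whose median sum was 1977, 1615 and 1826 UMIs per 10000.

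At a Defa sum of 1500 to 3000, the lowest Paneth cells, Lyz1 was at 65.6, 84 and 46.4 UMIs per 10000. Ang4 was at 14, 12.2 and 6.66 there, and Mptx2 at 9.71, 16.2 and 5.24. At 5000 to 7000 Lyz1 was at 421, 284 and 219, Ang4 at 239, 173 and 116, and Mptx2 at 302, 139.9 and 65.5. All 3 were thus far higher at 5000 to 7000 than at 1500 to 3000. The largest fold between neighbouring groups of Paneth cells lay between those of 1500 to 3000 and those of 3000 to 5000. At 7000 or more, AOS 0 and B + A 0 were lower again, with Lyz1 at 352 and 197, Ang4 at 197 and 146, and Mptx2 at 202 and 65.4. In B + A 10 these were 177, 125 and 96.1. Per 10000 UMIs outside the defensins Lyz1 was higher there in AOS 0 (1142, then 1553) and Mptx2 lower in B + A 0 (386, then 262). Mmp7 was at 23.2 and 20.7 at a Defa sum of 3000 to 5000 in AOS 0 and B + A 0, and already lower at 5000 to 7000, at 15 and 13.9. In B + A 10 it was at 9.3 and 11.1 in the groups of 3000 to 5000 and 5000 to 7000. Mptx2 was also lower at 5000 to 7000 in B + A 0, at 139.9 after 161. Per 10000 UMIs outside the defensins, Mmp7 was at 42 and 40.7 in these groups of AOS 0 cells, at 39.4 and 38.4 in B + A 0 and at 16.9 and 32.7 in B + A 10. On that scale it was also higher, at 59.8, in the AOS 0 cells of 7000 or more, so its course among the richest cells depended on the scale.

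**Figure D2:**
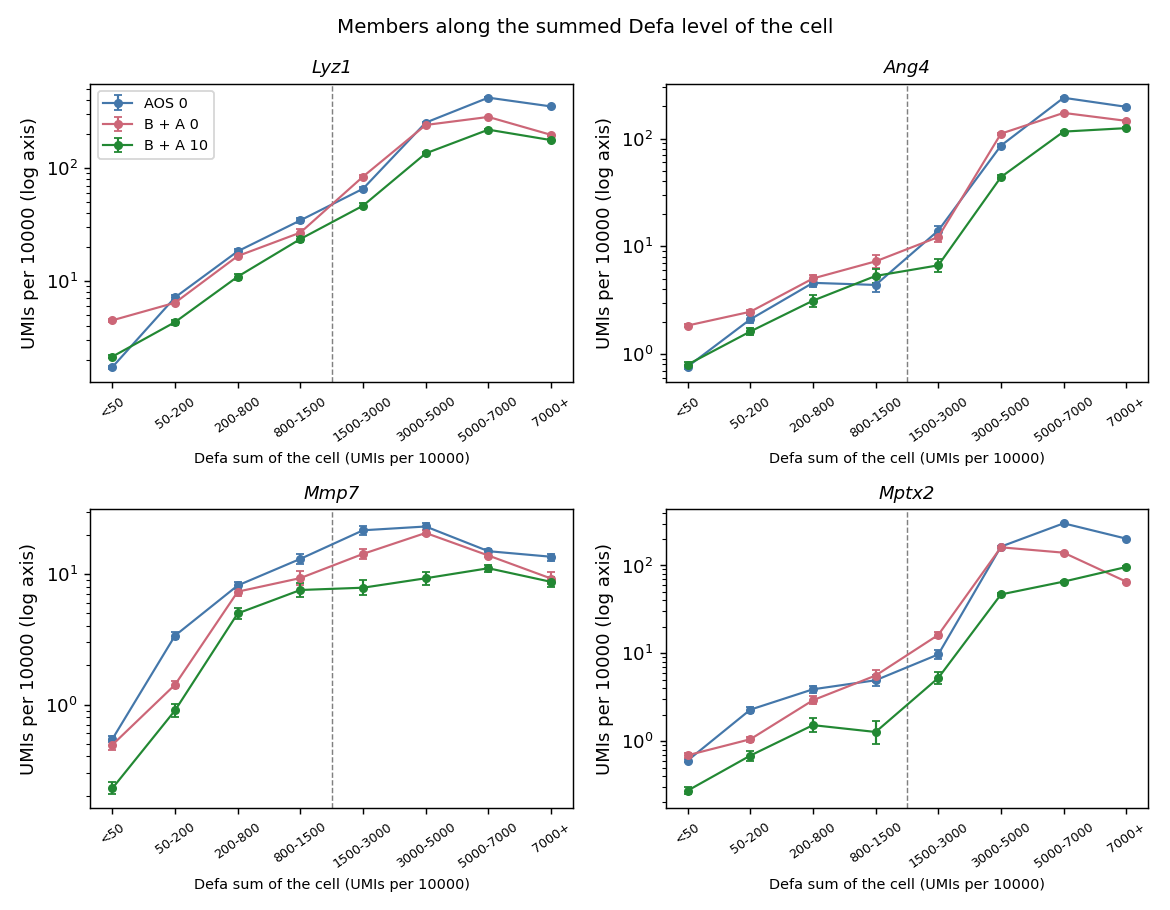
Level of each member (UMIs per 10000, log axis) in cells grouped by their summed Defa level, in the 3 libraries, with exact Poisson 95% intervals and a dashed line at the minimum of 1500 for Paneth cells. Mmp7 is above its lowest level well before the line, while Ang4 and Mptx2 come up after it, from 14 to 239 and from 9.71 to 302 in AOS 0.

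The goblet markers moved with the Defa sum as well. Cells with a Defa sum of 1500 to 3000 had median goblet sums of 1202, 1389 and 1410, and those at 5000 to 7000 had 159, 241 and 236. Their part in the course of the members was not tested. Just outside the minimum, at a Defa sum of 1200 to 1500, 12 cells of AOS 0 held Lyz1 at 17.6, and just inside, at 1500 to 1800, 7 cells held it at 49.8. For B + A 10 the values were 24.5 in 27 cells and 48.9 in 12 cells. Ang4 lay at 4.16 and 5.52 on the 2 sides in AOS 0, so cells near the minimum were low in Ang4 on either side of it.

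Among Paneth cells the members varied widely. Lyz1 per cell had a lowest value of 0.813, a median of 272 and a highest value of 1091 UMIs per 10000 in AOS 0. In B + A 0 these were 5.12, 209 and 769, and in B + A 10 they were 0, 146 and 833. Mptx2 had medians of 133, 69.5 and 15.1, and 9 of 109, 10 of 189 and 46 of 191 Paneth cells had no Mptx2 UMI. The ranges from the lowest to the highest cell overlapped between the libraries, but such ranges rest on extreme cells. The upper quartile of B + A 10 was 216 for Lyz1, 114 for Ang4, 12.8 for Mmp7 and 72 for Mptx2. Each of these was below the AOS 0 median of the same member. Ang4 had medians of 122, 132 and 57.4, so the median Paneth cell of B + A 0 was not below that of AOS 0 although the pooled level was. Mmp7 had medians of 13.8, 11.5 and 7.93 and reached 70.8, 54.4 and 46.3 in single cells.

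**Figure D3:**
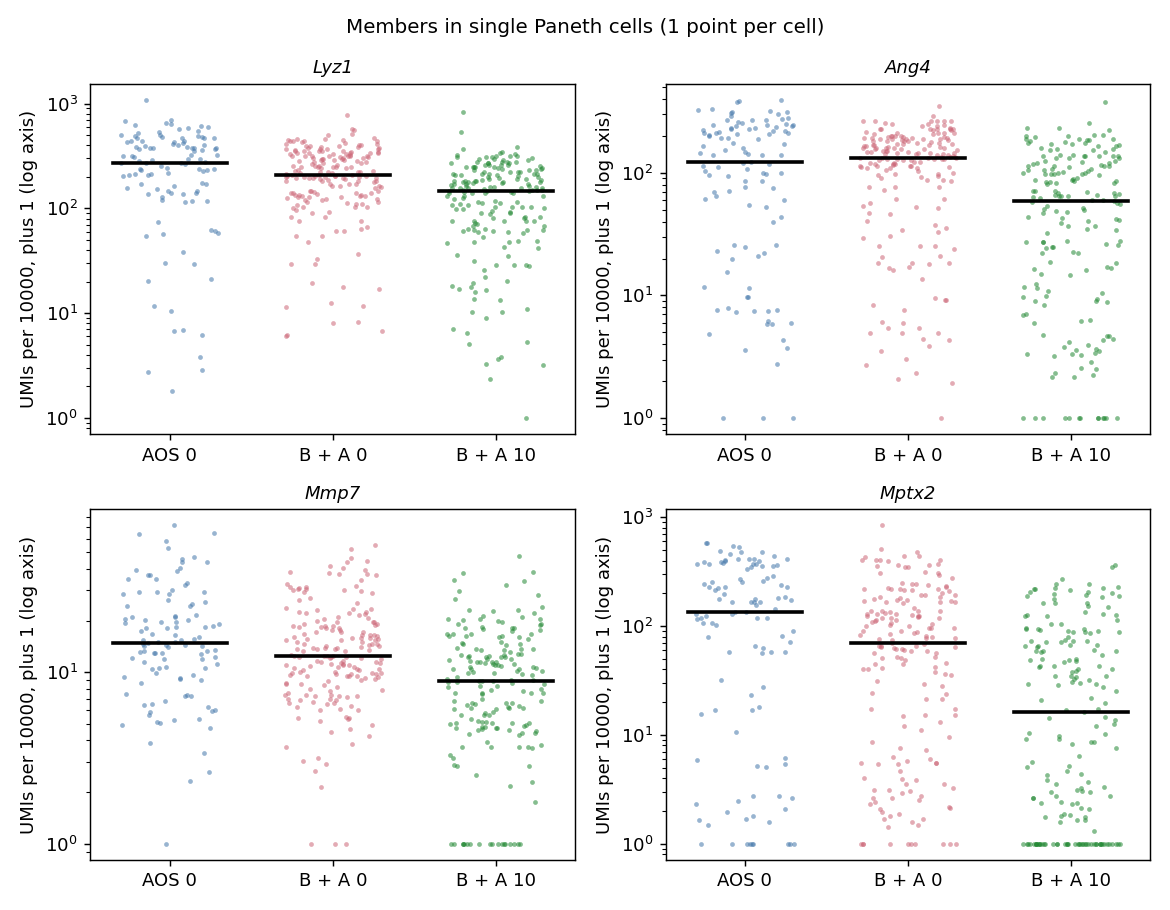
Each point is 1 Paneth cell, with the level of the member plus 1 (UMIs per 10000, log axis) and a black bar for the median over the cells of the library. The bar of Mptx2 is at 133, 69.5 and 15.1 from AOS 0 to B + A 10, and cells without a UMI lie on the bottom line, most of them in B + A 10.

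Thinned to 1000 UMIs, all 4 members were found together in 55% (45.2 to 64.6), 54% (46.6 to 61.2) and 29.3% (23 to 36.3) of the Paneth cells. Lyz1 alone was found in 96.3%, 96.8% and 95.3%. Ang4 was found in 85.3%, 92.6% and 76.4%, Mmp7 in 76.1%, 70.9% and 51.3%, and Mptx2 in 77.1%, 75.7% and 58.1%. Without thinning the share with a Mptx2 UMI was 91.7%, 94.7% and 75.9%, and with an Ang4 UMI 97.2%, 99.5% and 93.2%. In villus cells the thinned share of Mmp7 was at most 1.75% and that of Lyz1 15.3%, 42.9% and 20%.

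Lyz1, Ang4 and Mptx2 varied together from cell to cell, and Mmp7 had low correlations with them over all Paneth cells. Over 102, 181 and 141 Paneth cells thinned to 5000 UMIs, Spearman's rho of Lyz1 with Ang4 was 0.75, 0.56 and 0.66, and that of Ang4 with Mptx2 0.75, 0.55 and 0.67. Lyz1 with Mptx2 had 0.67, 0.58 and 0.43. Mmp7 had 0.00, 0.09 and 0.12 with Lyz1 and -0.11, -0.02 and 0.14 with Ang4, and 0.07, 0.17 and 0.06 with Mptx2. These are descriptions over cells of 1 library that share their depth and their library. Ang4 went with the Defa sum (0.70, 0.59 and 0.72) and against the goblet markers (-0.66, -0.57 and -0.73). In cells with at least 50% of their UMIs from Defa genes rho of Lyz1 with Ang4 was 0.49, 0.34 and 0.36. In these cells that of Lyz1 with Mptx2 was 0.36, 0.38 and 0.14, and that of Mmp7 with Mptx2 was 0.37, 0.28 and -0.13. Mmp7 had 0.04, 0.17 and 0.05 with Lyz1 there, and 0.09, 0.15 and -0.02 with Ang4. In AOS 0 and B + A 0 Mmp7 thus went with Mptx2 in these cells, while its correlations with Lyz1 and Ang4 stayed low.

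The genes most like each member were named by a fixed rule. Over the 12 combinations of class and library the most alike rows outside the Defa genes were AY761184, Ang4 and Pnliprp2, a lipase, for Lyz1, all with r of 0.98 or 0.99. For Ang4 they were Gm15292, AY761184 and Lyz1, and for Mptx2 Gif, which encodes the vitamin B12 binding intrinsic factor, Ang4 and Gm15292. Among the 20 most alike genes there were 11 Defa rows for Lyz1, 12 for Ang4, 10 for Mptx2 and 2 for Mmp7. The Defa sum chose the Paneth class, so Defa rows are high there by the rule, and nothing is read from these counts. The genes most like Mmp7 were Itln1, an intelectin that binds microbial sugars, Nupr1 and Pla2g2f, a secreted phospholipase.

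Over single Paneth cells the most alike genes were Defa37, Ang4 and Defa35 for Lyz1, with mean rho of 0.67, 0.66 and 0.65. For Ang4 they were Defa37, Defa35 and Gm15292 (0.78, 0.77 and 0.74), and for Mptx2 Ang4, Defa35 and Defa37 (0.66, 0.60 and 0.59). For Mmp7 they were Reg4, a secreted lectin, Cd24a, a surface protein of Paneth and other crypt cells, and Retnlb, a secreted resistin-like protein of goblet cells, with values of only 0.38, 0.30 and 0.30.

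Between B + A 0 and AOS 0, the comparison for busulfan, all 4 members were lower in Paneth cells with busulfan, and Mptx2 alone was past 1.5-fold. Mptx2 was 1.67-fold lower, at a ratio of 0.6 (0.593 to 0.607). Lyz1 had a ratio of 0.767 (0.761 to 0.774), Ang4 of 0.839 (0.829 to 0.849) and Mmp7 of 0.895 (0.861 to 0.93). Of 978 genes with at least 300 UMIs in these cells, 1.12% were lower by more than 1.5-fold and 14.2% higher, and the median of all was 0.21 on the log2 scale. In Paneth cells of 5000 to 20000 UMIs the log2 ratios of Lyz1 and Ang4 were above 0, at 0.04 and 0.34, and Mmp7 (-0.59) was past the limit in place of Mptx2 (-0.43). Only 8 of the 978 genes had a lower ratio than Mptx2, against 31 for Lyz1, 61 for Ang4 and 103 for Mmp7.

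Between B + A 10 and B + A 0, the comparison for AOS given with busulfan, 3 of the 4 members were past 1.5-fold, all of them lower with AOS. Mptx2 was 2.02-fold lower (ratio 0.494, 0.485 to 0.503), Ang4 1.56-fold (0.64, 0.63 to 0.65) and Mmp7 1.54-fold (0.65, 0.619 to 0.683), while Lyz1 was just inside the limit at 1.47-fold (0.678, 0.671 to 0.686). Of 973 genes, 2.16% were lower by more than 1.5-fold and 1.54% higher, with a median of -0.10. At a minimum of 100 UMIs for a gene, 4.47% were lower. Only 1 of the 973 genes had a lower ratio than Mptx2, 11 had a lower one than Ang4 and 17 than Mmp7. With levels taken per 10000 UMIs outside the defensins, Mptx2 alone stayed past 1.5-fold (-0.95 on the log2 scale), with Ang4 at -0.58 and Mmp7 at -0.55. In the 53, 92 and 76 Paneth cells without markers of goblet, crypt or villus cells Mptx2 was just past it at -0.59 and Lyz1 just short of it at -0.58.

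Between B + A 10 and AOS 0 all 4 members were past 1.5-fold. Mptx2 was 3.37-fold lower (ratio 0.296, 0.291 to 0.302), Lyz1 1.92-fold (0.521, 0.514 to 0.527), Ang4 1.86-fold (0.536, 0.528 to 0.545) and Mmp7 1.72-fold (0.582, 0.553 to 0.613). Of 635 genes, 2.05% were lower by more than 1.5-fold and 11% higher, with a median of 0.13. No gene of the 635 had a lower ratio than Mptx2, and 5, 6 and 9 had a lower one than Lyz1, Ang4 and Mmp7. Without the cells that held such markers Mmp7 was inside the limit, at -0.55 on the log2 scale. The 3 comparisons share their libraries, so their values are not independent. The Defa genes, whose sum chose these cells, stood at 5623, 5569 and 5727 UMIs per 10000, and nothing is read from that. As a description, for every 100 Defa UMIs, Paneth cells held 5.9, 4.57 and 3.01 Lyz1 UMIs and 3.84, 2.33 and 1.12 Mptx2 UMIs.

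**Figure D4:**
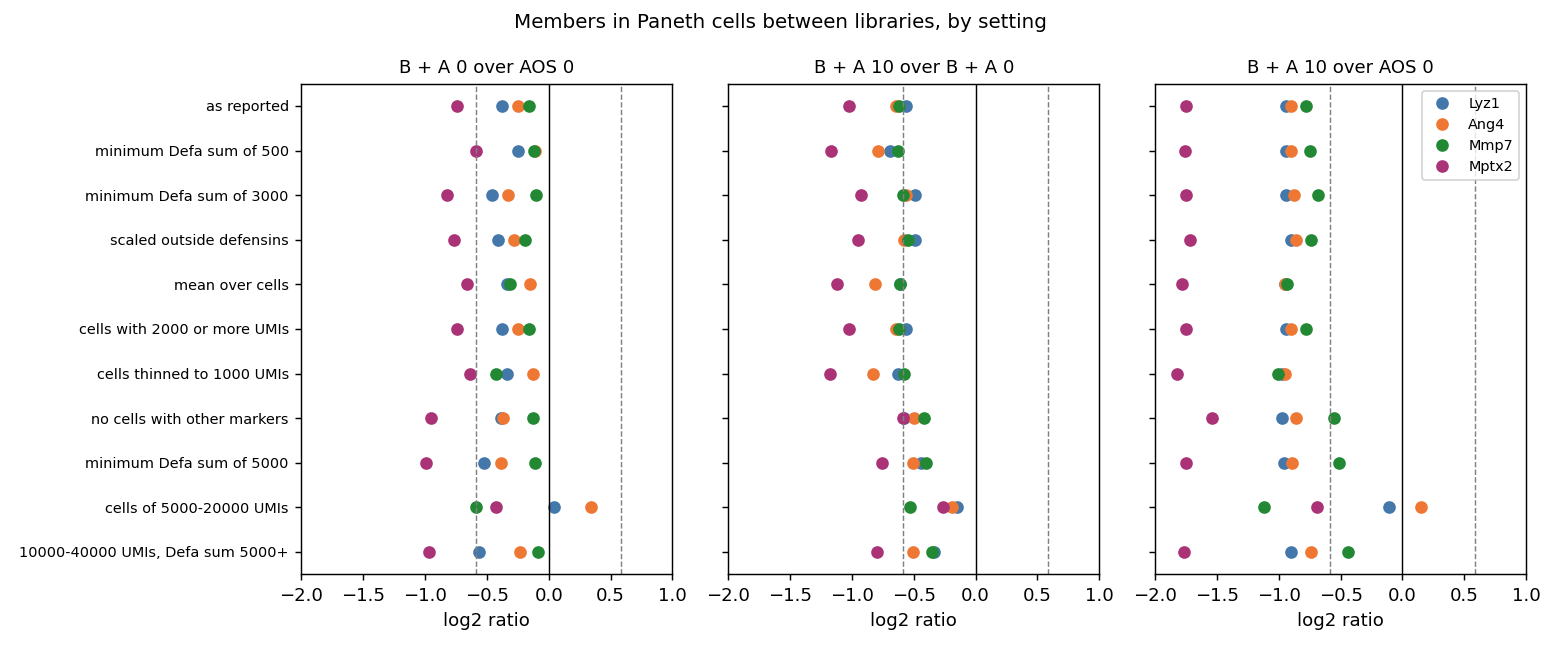
Log2 ratio of each member between libraries in Paneth cells, under the reported setting (top line) and 10 others, with dashed lines at 1.5-fold. Mptx2 lies lowest in most lines, down to -1.82 for B + A 10 over AOS 0, and the 3 points above 0, of Lyz1 and Ang4, are those of cells with 5000 to 20000 UMIs.

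The depth of the Paneth cells moved with these differences. In AOS 0 and B + A 0, Lyz1, Ang4 and Mptx2 were higher in Paneth cells above 20000 UMIs than in those of 5000 to 20000. Among Paneth cells of 10000 to 20000 UMIs, Lyz1 was at 173, 192 and 181 in 34, 51 and 56 cells, and Ang4 at 70.9, 88.6 and 87.6, with no lower level in the busulfan libraries. Mptx2 was at 89.2, 63.9 and 63.9 and Mmp7 at 22.2, 14.7 and 9.52 there. Among those of 20000 to 40000 UMIs Lyz1 was at 368, 266 and 219.6 in 40, 78 and 25 cells, and Mptx2 at 235, 146 and 73.4. The Defa level of the cells differed between the libraries within these limits, at 3840, 4552 and 5750 for 10000 to 20000 UMIs.

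**Figure D5:**
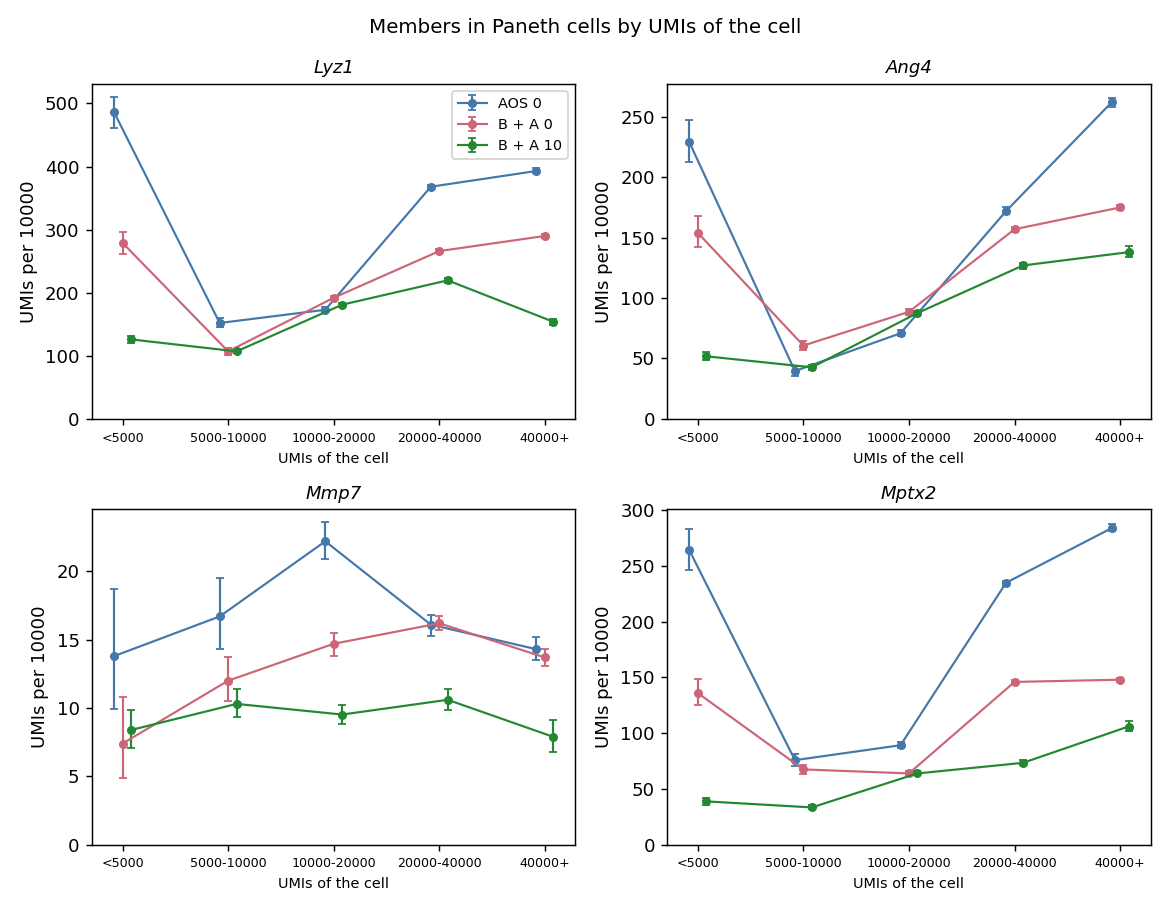
Level of each member (UMIs per 10000) in Paneth cells grouped by the UMIs of the cell, in the 3 libraries, with exact Poisson 95% intervals. The libraries lie closest for Lyz1 and Ang4 at 5000 to 20000 UMIs, and the first AOS 0 point rests on 7 cells and the last B + A 10 point on 5.

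Both were therefore limited together, in a step chosen after these values were seen. Paneth cells of 10000 to 40000 UMIs with a Defa sum of 5000 or more numbered 38, 76 and 65. Within these limits B + A 10 was still the shallowest, with medians of 27856, 26804 and 16526 UMIs. Lyz1 was at 392 (388 to 395), 266 (264 to 269) and 210.0 (207 to 213) in them, and Ang4 at 193 (190.0 to 195), 164 (162 to 166) and 115 (113 to 117). Mptx2 was at 242 (239 to 245), 123 (122 to 125) and 71 (69.5 to 72.5), and Mmp7 at 14.4 (13.7 to 15.1), 13.5 (13 to 14) and 10.6 (10 to 11.2). In these cells rich in defensins AOS 0 was highest and B + A 10 lowest for all 4 members, and the intervals of Mmp7 in AOS 0 and B + A 0 overlapped.

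In Paneth cells within the same limits of depth and with a Defa sum under 5000, 36, 53 and 16 cells with medians of 15088, 17955 and 13072 UMIs, the order was another one. Lyz1 was at 178 (175 to 182), 211 (208 to 213) and 137 (132 to 142), Ang4 at 60.3, 92.6 and 51.7, and Mptx2 at 110.3, 129 and 53.1. The 3 members were thus higher in B + A 0 than in AOS 0 there. The median Defa sum of these cells was 3112, 4015 and 4396 and the median goblet sum 959, 694 and 737, and their part in the difference was not tested. B + A 10 was lowest of the 3 libraries for each member, Mmp7 included (23.6, 20.3 and 6.96).

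The copies of the members had other levels. Lyz2 had 2, 8 and 1 UMIs in all Paneth cells of the libraries, beside 84695, 116308 and 38814 for Lyz1, with the promoters shown above. Mptx1 was at 109, 51.2 and 43 UMIs per 10000. Against AOS 0 it was 2.14-fold lower in B + A 0 (ratio 0.468, 0.46 to 0.476), and B + A 10 was 1.19-fold lower than B + A 0 (0.839, 0.819 to 0.859), so most of its difference lay at the first step where that of Mptx2 lay at both.

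Mptx1 also differed from Mptx2 in its cells. It was at 55.1, 51.8 and 37.2 in goblet cells, where Mptx2 was at 1.05, 1.36 and 0.432. In AOS 0 its level was highest, at 318, in cells with a Defa sum of 1500 to 3000 and stood at 30 in those of 7000 or more, where Mptx2 was at 9.71 and 202. Ang was at 0.286, 0.343 and 0.267 and Ang5 at 0.219, 0.177 and 0.165 in Paneth cells, with all intervals of their ratios between libraries across 1. Ang6 had 4 UMIs in Paneth cells, all in B + A 0, and Ang2 had no row in the table.

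Other genes of Paneth cells were read from a list of 52, of which 47 had a row and 28 had 100 or more UMIs in Paneth cells. Of the 28, 16 were more than 2-fold above crypt cells in all 3 libraries. Between B + A 0 and AOS 0, 1 was lower by more than 1.5-fold and 3 were higher. Between B + A 10 and B + A 0 the counts were 2 and 1, and between B + A 10 and AOS 0 they were 8 and 2. Among all genes with a minimum of 100 UMIs, 1.33%, 4.47% and 3.05% were lower by more than 1.5-fold in these comparisons. With a minimum of 300 UMIs, 14.2%, 1.54% and 11% of all genes were higher by more than 1.5-fold. No excess of higher genes in the list is read from its counts. The medians of the list were -0.13, -0.21 and -0.05 on the log2 scale, beside 0.21, -0.10 and 0.13 for all genes.

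Among the secreted antimicrobials of this list, 12 with enough UMIs, Itln1 was nearest to the members, at 201, 161 and 108 UMIs per 10000. Retnlb was level at 76.6, 76.7 and 77.7, and AY761184 was at 249, 214 and 221. The lectins Reg3b and Reg3a were higher in B + A 0 than in AOS 0, at ratios of 1.68 (1.64 to 1.72) and 1.92 (1.47 to 2.55). Both were higher in goblet cells than in Paneth cells in each library. Between B + A 10 and AOS 0, Reg3a and Reg3b had ratios of 1.72 and 1.31.

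Among the 5 granule and secreted enzymes, Clps, the cofactor of pancreatic lipase, stood at 33.8, 28.1 and 18.5, and its ratio of B + A 10 to B + A 0 was 0.661 (0.638 to 0.684). Pnliprp2 had a ratio of 0.582 (0.463 to 0.728) in the same comparison, and Copz2, a subunit of vesicle coats, one of 0.503 (0.336 to 0.742) between B + A 10 and AOS 0. Gpx2, a glutathione peroxidase, was 1.59 (1.47 to 1.72) times as high in B + A 0 as in AOS 0. It was lower in Paneth cells (3.38, 5.38 and 4.29) than in crypt cells (16.9, 16.3 and 13.5), and also below goblet cells in each library. Of these 5 genes 4 were lower by more than 1.5-fold in B + A 10 than in AOS 0, beside the 3.05% of all genes.

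The niche ligand Wnt3 was at 0.298, 0.208 and 0.178, with a ratio of 0.698 (0.511 to 0.957) between B + A 0 and AOS 0. Among 8 transcription and secretory factors the highest ratios of B + A 10 to B + A 0 were those of Tcf7l2, a factor of the Wnt pathway, at 1.8 (1.38 to 2.35), Sox9, which Paneth cells need to form, at 1.47 (1.21 to 1.79), and Xbp1, a factor of the secretory stress response, at 1.45 (1.14 to 1.84). Against AOS 0, Sox9 and Xbp1 had ratios of 0.781 (0.641 to 0.953) and 0.718 (0.567 to 0.91) in B + A 0. In B + A 10 these were 1.15 (0.927 to 1.42) and 1.04 (0.804 to 1.34), with intervals across 1. Tcf7l2 was also the highest of the list between B + A 10 and AOS 0, at 1.95 (1.42 to 2.7), but in crypt cells too it was higher in B + A 10, at 0.788 beside 0.545 in AOS 0. No gene of the sensing and autophagy group had enough UMIs.

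Taken over all cells of a library the order of the members was not that of the Paneth cells. Lyz1 was at 26.9, 49.8 and 19.8 UMIs per 10000 of all UMIs of the libraries. Ang4 was at 13.7, 27.7 and 10.2, Mptx2 at 16.5, 23.6 and 6.63, and Mmp7 at 2.31, 3.74 and 1.54. All 4 were highest in B + A 0, the library with the largest share of Paneth cells at 5.92% (5.12 to 6.79), against 2.65% (2.18 to 3.19) in AOS 0 and 3.57% (3.09 to 4.1) in B + A 10. All 4 were lowest in B + A 10 by either measure. The share of Paneth cells and the level within them both enter these values.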

How the data were processed

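Per the study's methods, the authors aligned the reads of 3 droplet libraries to mm10 with Cell Ranger 2.2.0 and normalized them in Seurat. They forced 5000 cells (B + A 10 holds 5352) and removed cells under 200 genes and genes in fewer than 3 cells. Each value deposited by the authors is a natural log, ln(1 + x), with x the UMIs of the gene scaled to a cell total of 10000. All 24333763 values above 0 came back as whole UMIs (within 0.01), which gave 23003083 (B + A 10) to 35258551 (AOS 0) UMIs.

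Cells were classed by marker sums per 10000 UMIs: Paneth 1500 or more over the Defa rows, then T, enteroendocrine and tuft cells, then goblet 300, crypt 20 or villus 300, where 1 of these passed. The minimums other than that for Paneth cells were set after the sums were seen. No doublet caller was run. Levels are pooled UMIs per 10000 with exact Poisson intervals, ratios have exact conditional binomial intervals and shares Clopper-Pearson intervals, each at 95%. Fewer UMIs give wider intervals, and none covers the spread between mice. With 1 library per group no test was run: the rules of size were 1.5-fold between libraries and 10-fold between classes, beside the share of genes of 300 or more UMIs past them. The script for the fold rule was first tested on simulated data with known changes. Named genes were the members, their copies, the 3 genes most like each member by each measure (r of log2 of the level plus 0.1 over classes and libraries, rho over thinned cells) and up to 3 with the largest and smallest ratios in a list of other Paneth genes. The members and lists were chosen with earlier results of these data known. Alternatives were other Defa minimums, scaling outside defensins, means over cells, limits on depth, thinning and leaving out cells with markers of another class. Locations are from GENCODE M21. The tools were Python 3.11.15, numpy 2.4.6, scipy 1.17.1, pandas 2.3.3, biopython 1.88 and matplotlib 3.10.9.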

Additional observations from a re-analysis of the deposited data

How the results depend on the processing

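Of 120 log2 ratios of a member between libraries under other settings, 117 were below 0, as reported. The other 3 came from Paneth cells of 5000 to 20000 UMIs, a limit chosen after the data were seen: 0.04 for Lyz1 and 0.34 for Ang4 in B + A 0 over AOS 0, and 0.15 for Ang4 in B + A 10 over AOS 0. The cause was not tested. By size, 83 of the 120 were scored as moved from the reported value and 34 as the same. The 120 are not independent, because the comparisons share libraries and the minimum of 2000 UMIs repeated the reported values. The members past 1.5-fold in B + A 10 over B + A 0 were 1 in place of 3 with scaling outside defensins, without cells with markers of another class, with a Defa minimum of 5000 and with that minimum at 10000 to 40000 UMIs, and 0 at 5000 to 20000 UMIs. They were 2 with a Defa minimum of 3000 (Ang4 at -0.56) and 4 with one of 500 and with means over cells. For B + A 10 over AOS 0 the limit of 5000 to 20000 UMIs left 2 of 4. The count was 3 of 4 without cells with markers of another class, with a Defa minimum of 5000 and with that minimum at 10000 to 40000 UMIs. Over B + A 0 and AOS 0 the count was 1 throughout, but at 5000 to 20000 UMIs the gene past the limit was Mmp7 (-0.59) and not Mptx2 (-0.43). Both limits with a Defa minimum of 5000 were also chosen after the data were seen. Mptx2 in B + A 10 over AOS 0 ranged from -1.82 to -0.69. With a Defa minimum of 5000, 7 pairs of a member and a library were 10-fold or more above each other class, and 9 under every other setting. The minimum of 2000 UMIs removed no cell. B + A 10 was the shallowest library, and its 191 Paneth cells gave 2186 Mmp7 UMIs.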
